A study of Pan troglodytes with 38 samples.

Results

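In the heart muscle cell each beat is set by calcium that leaves and re-enters the sarcoplasmic reticulum, the internal calcium store. Calcium entering through surface channels opens the release channel RYR2, the released calcium drives contraction, and the pump encoded by ATP2A2 and the exchanger encoded by SLC8A1 then clear it from the cytosol. The 10 genes described here encode this machinery: the release channel (RYR2), the proteins held with it in the store or at the junction (CASQ2, TRDN, JPH2, FKBP1B, HRC), the pump and its inhibitor (ATP2A2, PLN), the surface exchanger (SLC8A1) and the luminal protein sarcalumenin (SRL). They were taken by symbol, and each of the 10 matched 1 row among 31373 annotated chimpanzee genes, of which 18040 carry a symbol.

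The RNA-seq data came from post-mortem heart tissue of 38 captive-born chimpanzees, 1 library per animal. The labels put all animals in a single group. The study's sample table divides them by RNA extraction date into an early batch of 17 hearts and a late batch of 21 hearts, extracted in 2018, and by sex into 22 females and 16 males. That table marks 7 animals as positive for HBV or HCV and 1 as exposed to HIV, all of them late hearts and 4X0339 and 4X0354 among the 7, and virus status was not compared here. It also lists the early libraries as published ones sequenced again, while the methods give other numbers, so extraction batch and library set cannot be told apart. Some animals are first-degree relatives, and the region of the heart is not stated in the sources used here.

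Totals on orthologous exons were between 14408012 and 81603350 reads with a median of 41226040. The 13 protein-coding mitochondrial genes took 17.2% to 34.98% of the gene counts in the early batch and 21.5% to 60.1% in the late batch, and the 6 hearts above 45% (537, Little_R, 495, 529, 558 and 4X0339) were all of the late batch. All 14 cardiomyocyte markers had a median of at least 1 CPM, reads per 1000000 reads on orthologous exons, and their summed level was between 19717 CPM in Little_R and 183222 CPM in 503, with a median of 133442 CPM. Heart 549 stood apart by its chamber markers. MYL7, an atrial myosin light chain, was at 12747 CPM there against at most 929 CPM in any other heart, and the ventricular light chain MYL2 was at 315 CPM against a median of 12455 CPM. The members in 549 ranked between 12 and 32 of 38, inside the range of the other hearts.

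The release channel and the exchanger were at ordinary levels in most hearts and very low in a few. Levels in CPM are not adjusted for transcript length and are therefore compared between hearts, not between genes. In bulk tissue fewer cardiomyocytes and less RNA per cardiomyocyte cannot be told apart.

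RYR2, the channel that releases stored calcium, was at 165 CPM in Little_R, at a median of 2032 CPM and at 3694 CPM in 503. The early batch was between 1044 and 2805 CPM (median 2014) and the late batch between 165 and 3694 CPM (median 2107). The medians were close while 8 of the 21 late hearts, and no early one, lay under 50% of the median over all hearts.

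SLC8A1, the sodium-calcium exchanger that carries calcium out of the cell, had a minimum of 9.18 CPM in 537, a median of 156 CPM and a maximum of 266.6 CPM in 456. Little_R at 9.72 CPM and 529 at 10.8 CPM were next to the lowest. The early hearts reached down to 73.0 CPM, so the low values of the late batch lay outside their range. Its highest level was 29.03 times its lowest.

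ATP2A2 encodes SERCA2, which pumps calcium back into the store. It was at 569 CPM in 537, 3403 CPM at the median and 8322 CPM in 503. The early hearts stayed between 2802 and 6302 CPM, and the late hearts spread beyond them on both sides. PLN, phospholamban, which restrains that pump, was at 111 CPM in 537, 703 CPM at the median and 1391 CPM in 503. The hearts at both extremes of PLN were thus the same animals as for ATP2A2.

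CASQ2, the cardiac calsequestrin that binds calcium inside the store, was at 138 CPM in Little_R, 2379 CPM at the median and 3773 CPM in 88A020. In the early batch it lay between 1816 and 3773 CPM, and 6 late hearts lay under 50% of the median. HRC, a histidine-rich calcium-binding protein of the same lumen, was at 102 CPM in Little_R, 1029 CPM at the median and 1583 CPM in 95A014. SRL, sarcalumenin, a luminal calcium-binding glycoprotein, was at 125 CPM in Little_R, 1128 CPM at the median and 1806 CPM in 4X0339.

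JPH2, junctophilin, which holds the surface membrane close to the store, ranged from 76.1 CPM in Little_R through a median of 295 CPM to 534 CPM in 4x0430. Only Little_R and 4X0354 lay under 50% of its median. TRDN, triadin, which anchors calsequestrin to the release channel, was at 107 CPM in 529, 278 CPM at the median and 1160 CPM in 4X0354. The next highest TRDN value was 512 CPM in 558, so 4X0354 lay alone above the rest. In that same heart 7 of the 8 members other than TRDN and FKBP1B were under 50% of their median.

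FKBP1B, which binds and steadies the release channel, went the other way. Its levels were 1.23 CPM in 4x0519, 2.98 CPM at the median and 12.8 CPM in 537, and the smallest count behind them was 63 reads. The 6 hearts above 2 times the median were all of the late batch (537, Little_R, 495, 529, 558 and 4X0354). All 6 also held at least 4 of the other 8 members, TRDN set aside, under 50% of their medians.

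**Figure D1:**
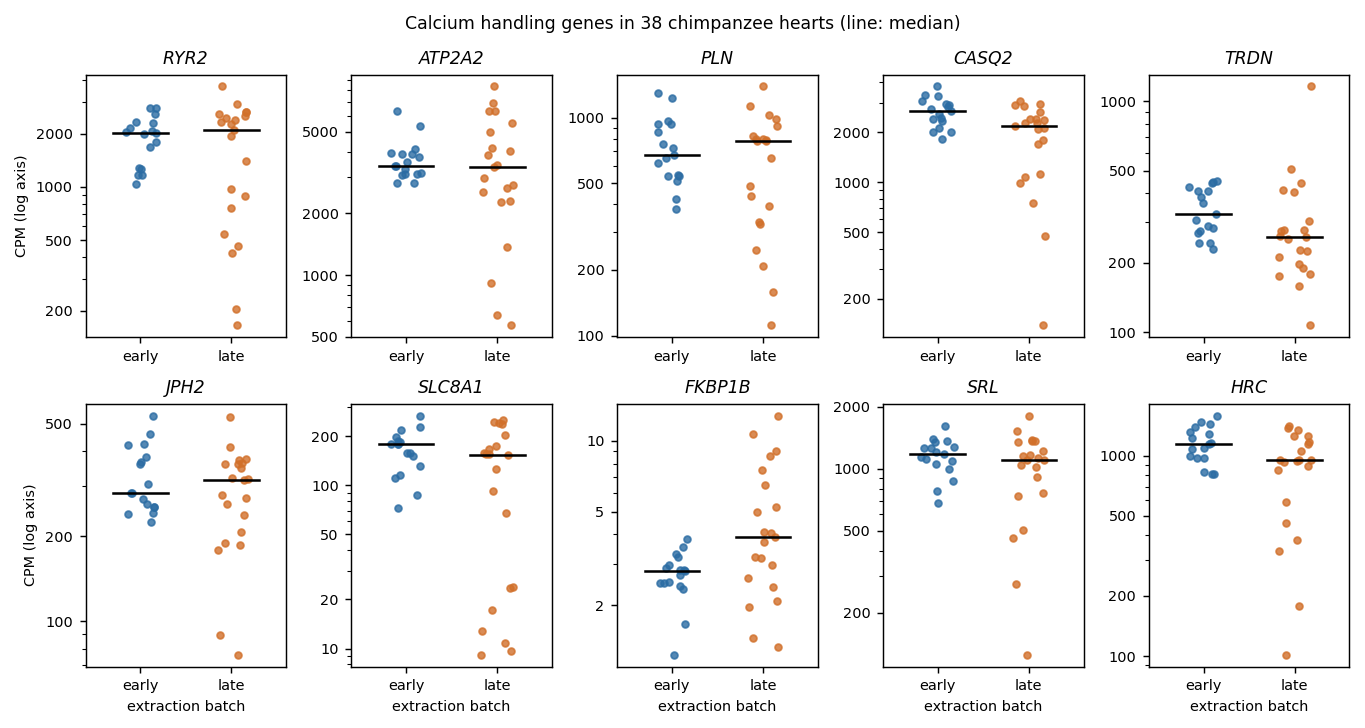
Level in CPM (log axis) of each member in the 17 early and the 21 late hearts by RNA extraction, 1 point per heart and a line at the group's median. The lowest points of RYR2, ATP2A2, PLN, CASQ2, SLC8A1, SRL and HRC are late hearts.

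The low values fell together in the same animals. Of the 8 members other than TRDN and FKBP1B, 8 were under 50% of their median in Little_R, 7 in 537, 7 in 4X0354, 6 in 495, 6 in 558, 4 in 529, 3 in 676, 2 in 4X0339 and 1 in 4x0025. In the remaining hearts none of the 8 was that low. The hearts of this group are those with large mitochondrial shares, apart from 676 and 4x0025. With the same exceptions they also had the smallest orthologous exon totals, from 14408012 in Little_R to 26120173 in 529. The next total was 31112482 in 4x0043. Scaled by gene counts without mitochondrial genes, RYR2 had r = 0.78 with the log2 total and −0.62 with the log2 share. FKBP1B had −0.72 and 0.61, and TRDN −0.08 and −0.01. The part of depth in these levels was not tested.

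Over all hearts SLC8A1, RYR2 and PLN varied more than genes of the same level, and the other members lay within 2 SE of the trend at their level. The SD of log2 CPM (pseudocount 0.5) was 1.46 for SLC8A1, 1.05 for RYR2 and 0.58 for JPH2, the widest, the next and the narrowest. The median SD over members was 0.83 against 0.53 over all genes, whatever their level. Without the 6 hearts above 45% mitochondrial share these medians were 0.52 and 0.43.

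Dispersion, the natural log of a gene's overdispersion minus the trend at its mean level, was above 0 for 9 of the 10 members, against 44.9% of 13121 genes. SLC8A1 had the highest, 1.83 (SE over animals 0.26), and 96.6% of genes were lower. RYR2 followed at 1.09 (SE 0.29) and PLN at 0.94 (SE 0.25). HRC, TRDN, CASQ2 and ATP2A2 lay between 0.59 and 0.71, SRL at 0.45 (SE 0.44) and JPH2 at 0.35 (SE 0.31), and all 6 of these were within 2 SE of 0. FKBP1B, at −0.17 (SE 0.29), was the exception. It met the limit of 6 CPM in 1 heart or more only through late hearts where it was high. With a limit of 1 CPM in 19 hearts instead, FKBP1B was at 0.23 and 10 of 10 members were above 0, against 45.7% of 13250 genes. Single hearts moved several of these. Without Little_R SRL was at −0.007, JPH2 at 0.085, CASQ2 at 0.13 and HRC at 0.34, without 4X0354 TRDN was at 0.17, and without 537 ATP2A2 was at 0.38 and FKBP1B at −0.40. The members' median was 0.64 and that of all genes −0.12.

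**Figure D2:**
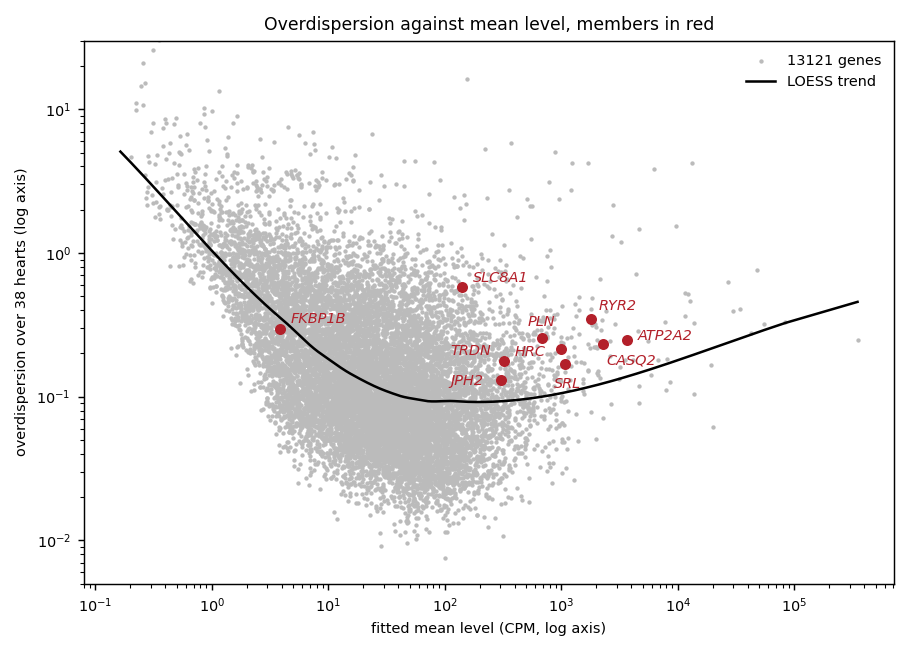
Overdispersion over 38 hearts against fitted mean level, both on log axes, for 13121 genes (grey), with the LOESS trend (line) and the members in red. SLC8A1 lies farthest above the trend among the members and FKBP1B lies under it.

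Dispersion was larger in the late batch. There 10 of 10 members were above 0, with a median of 0.85, against 46.8% of 12795 genes and a median of −0.08. In the 17 early hearts 5 of 9 members were above 0 and their median was 0.03, FKBP1B being under the level limit there. Of 12175 genes in the early batch 43.3% were above 0, with a median of −0.16, so the members' count lay near that share. PLN (0.74), SLC8A1 (0.67), RYR2 (0.37) and JPH2 (0.28) stayed above 0 there. In the early batch the dispersions of ATP2A2, CASQ2, SRL and HRC were below 0, between −0.58 and −0.32.

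Of the 10 members 1 passed the test between extraction batches. In edgeR's quasi-likelihood test with sex as a covariate, 11.2% of 15790 genes were higher in the late batch and 4.82% lower at an adjusted p under 0.05 (Benjamini-Hochberg). Among the members FKBP1B alone rose, by 0.69 log2 (SE 0.21, edgeR adjusted p = 0.0211), from a median of 2.80 CPM in the early to 3.91 CPM in the late batch, with overlapping groups. The other 9 were between −0.47 for CASQ2 (adjusted p = 0.194) and −0.03 for ATP2A2 (adjusted p = 0.953) on the log2 scale.

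FKBP1B's rise depended on a few hearts. Without 537 and Little_R it was 0.53 log2 (SE 0.19, edgeR adjusted p = 0.0625), and over all alternatives its adjusted p was between 0.00684 and 0.665. With the mitochondrial share as a further covariate it was 0.24 log2 (SE 0.21, adjusted p = 0.665). Macrophage markers differed between the batches as well, 7 of 8 being lower in the late one, and adipocyte markers, 3 of 5 tested being higher. Their part in the result was not tested.

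Of 109 calcium genes on 7 further lists, 97 were tested between batches, and 6 rose and 7 fell in the late batch, beside the 11.2% and 4.82% of all genes. Without the 6 hearts above 45% mitochondrial share 2 rose and 3 fell. Among the release complex partners RYR3, another release channel, was higher by 1.20 log2 (edgeR adjusted p = 0.0171) and CASQ1, the skeletal calsequestrin, was lower by 1.57 on the log2 scale (adjusted p = 0.00493). Of the pump regulators SLN, sarcolipin, an atrial inhibitor of the pump, fell by 3.38 log2 (adjusted p = 0.00188). In that comparison the early heart 549 held 177 CPM and every other heart at most 5.88 CPM, with a median of only 0.617 CPM over all hearts. Without 549, 7 of the 97 calcium genes rose and 6 fell. ITPR3, a calcium channel of the endoplasmic reticulum, was higher by 1.63 log2 (adjusted p = 0.00037).

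Sex, RNA integrity and age left the members without a call. Between males and females 0.215% of 15790 genes differed and no member did, the largest estimate being −0.45 log2 in males for SLC8A1 (SE 0.39, edgeR adjusted p = 0.824). No member had an unadjusted p under 0.05 by edgeR there, and none was called by DESeq2. On the 109 other calcium genes CACNA2D3, an auxiliary subunit of surface calcium channels, was higher in males by 2.74 log2 (SE 0.53, edgeR adjusted p = 0.00515), a call that was lost without heart 549. The slope on RNA integrity number called 0% of 16462 genes (2276 at an unadjusted p under 0.05, and 168 by DESeq2), and the slope on age at death in 34 animals called 0% of 16309 genes (1209 at an unadjusted p under 0.05, and 2 by DESeq2). TRDN came nearest among the members, with −0.15 log2 per unit of RNA integrity (SE 0.06, edgeR adjusted p = 0.267).

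Most members rose and fell together across hearts. Pearson's r of log2 CPM was tested for 45 pairs with 100000 permutations, and 36 pairs passed at an adjusted p under 0.05, 28 of them positive and 8 negative. RYR2, ATP2A2, PLN, CASQ2, SLC8A1, SRL and HRC formed a block whose 21 pairs had r between 0.67 and 0.94 (median 0.81). The block was picked by its r in these same hearts, so its high values follow in part from that choice. JPH2, left out of it, had r between 0.48 with SLC8A1 and 0.81 with SRL among the block's genes. Without 537 and Little_R the block's lowest r was 0.46 and its median 0.69, and without the 6 hearts above 45% its r was between 0.33 and 0.86 (median 0.59), ATP2A2 with CASQ2 at 0.33 not passing (permutation adjusted p = 0.0752).

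Over all 38 hearts the 8 negative pairs all held FKBP1B, and TRDN had r between −0.28 and 0.17 with the others and passed with none. That changed with the hearts included. Without 537 and Little_R TRDN had r = −0.54 with ATP2A2 (rho = −0.36, permutation adjusted p = 0.00225 for r). Without the 6 hearts 10 pairs were negative, 4 with FKBP1B and 6 with TRDN, which had r = −0.73 with ATP2A2, −0.63 with SLC8A1, −0.54 with JPH2, −0.51 with RYR2, −0.45 with SRL and −0.40 with PLN, at permutation adjusted p between 0.00027 and 0.0321. With 2 further hearts left out, r was between −0.47 for ATP2A2 and 0.16 for SRL. These were the hearts farthest from the median of 1 gene of the pair, so they were not the same for each pair. That gene was RYR2, ATP2A2 or PLN in their pairs and TRDN in the others.

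The pair of highest r over all hearts was CASQ2 and HRC, which both bind calcium in the store, with r = 0.94 (rho = 0.66, permutation adjusted p = 2.25e-05 for r). Without 537 and Little_R, the 2 hearts farthest from the median of CASQ2, it was 0.84. RYR2 and PLN had r = 0.92 (permutation adjusted p = 2.25e-05 for r), and 0.87 without the same 2 hearts. Their rho of 0.81 was the highest of any pair. The p behind these values is the smallest that 100000 permutations can give, 1e-05 before adjustment.

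The block was looser in the early batch. Of the 45 pairs, 6 passed there, all of them positive (RYR2 with PLN, CASQ2 and SRL, CASQ2 with SRL and HRC, and SRL with HRC), with r between 0.66 and 0.80. The median of the 21 block pairs was 0.46 in the early and 0.86 in the late batch. ATP2A2 had r between −0.07 and 0.18 with the rest of the block in the early batch and between 0.73 and 0.86 in the late batch. Its early rho was between 0.05 for PLN and 0.37 for RYR2. Without 338 and 88A020, the early hearts farthest from its median, r with the block's genes other than RYR2 was between −0.03 for PLN and 0.50 for HRC. Without 537 and Little_R the late r was between 0.55 for SRL and 0.77 for SLC8A1. These differences between batches were not tested.

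**Figure D3:**
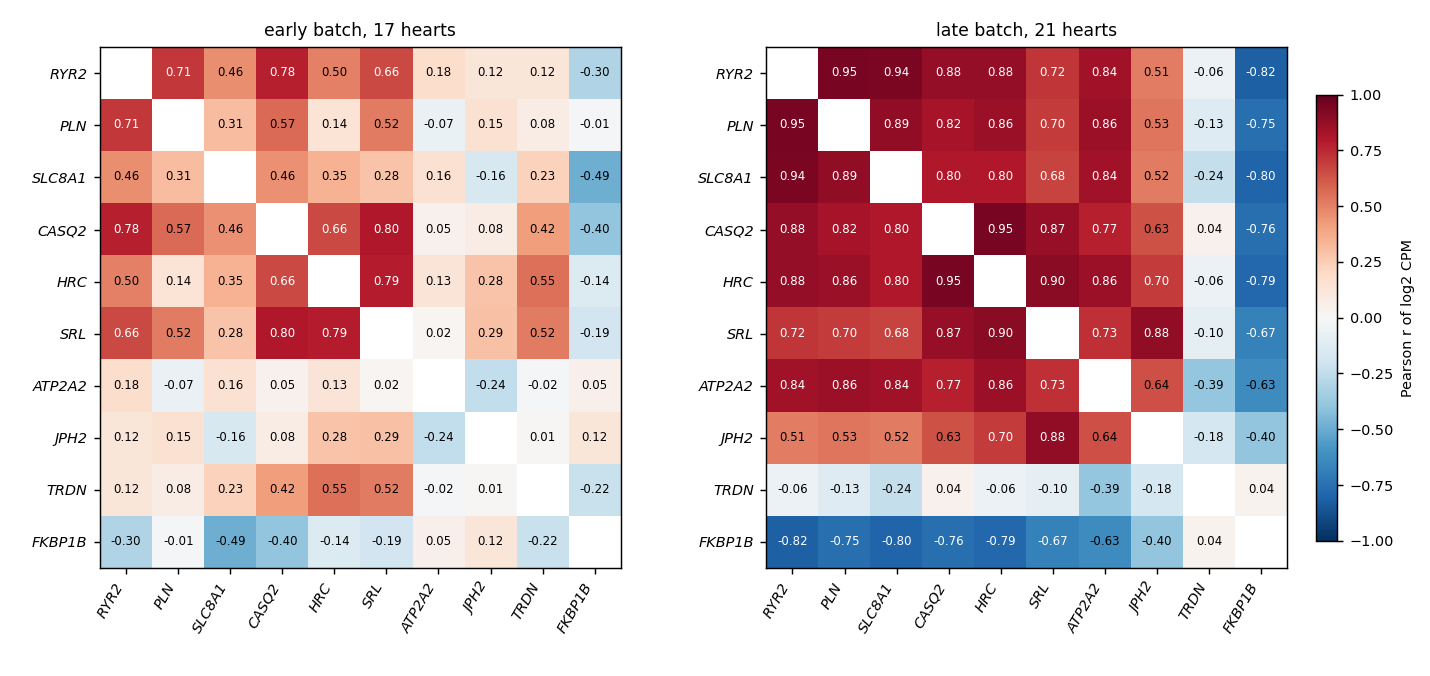
Pearson r of log2 CPM between members in the 17 early hearts (left) and the 21 late hearts (right), coloured from −1 to 1 and printed in each cell. The upper left block is at 0.68 or above in the late batch, and ATP2A2 is at most at 0.18 with its other genes in the early batch. FKBP1B is negative with every member but TRDN in the late batch.

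For comparison, between 3.49% and 7.37% of 13120 genes had r above 0.7 with a gene of the block, 5.22% with FKBP1B, 0.282% with JPH2 and 0% with TRDN. The genes whose levels followed a member most closely over the 38 hearts, which share library depth and scaling total, are given as a description. For RYR2 they were PDHA1 (r = 0.95), NDUFS1 (r = 0.94) and DLAT (r = 0.94), a pyruvate dehydrogenase subunit, a respiratory complex I subunit and another pyruvate dehydrogenase component. For SLC8A1 they were AKAP6, a kinase anchor of the heart muscle cell, PPARA, a nuclear receptor of fatty acid metabolism, and PRKAA2, a catalytic subunit of AMP-activated kinase, each at r = 0.96.

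ATP2A2 was followed by DSP, desmoplakin of the cell junctions (r = 0.89), PLIN4, a lipid droplet protein (r = 0.89), and ASB15 (r = 0.88). PLN was nearest to RYR2 (r = 0.92), PDHA1 (r = 0.90) and the ATP synthase subunit ATP5PB (r = 0.89). CASQ2 followed MTCH2 (r = 0.95), HRC (r = 0.94) and DLAT (r = 0.93). HRC followed CASQ2 (r = 0.94), the phosphate carrier SLC25A3 (r = 0.93) and IMMT (r = 0.93), and SRL followed IMMT, an organizer of the mitochondrial inner membrane (r = 0.91), HRC (r = 0.90) and MYOM3 (r = 0.88).

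JPH2 was nearest to SRL (r = 0.81), PREP (r = 0.79) and MIEF2 (r = 0.77). The nearest genes of TRDN were weaker, with KIF9 at r = 0.70 and EIF5B and SWI5 at r = 0.68. FKBP1B was nearest to JTB, FAM162B and BTN2A2, each at r = 0.84.

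Because the low hearts had large mitochondrial shares, each gene was fitted against the log2 mitochondrial share, with mitochondrial genes left out of the counts and with batch and sex as covariates. This comparison was chosen after seeing the data. Over all 38 hearts 9.82% of 16897 genes fell and 7.85% rose, and 4 members passed. SLC8A1 fell by 2.49 log2 per doubling of the share (SE 0.62, edgeR adjusted p = 0.00831), RYR2 fell by 1.57 (SE 0.51, adjusted p = 0.0313), PLN fell by 1.22 (SE 0.42, adjusted p = 0.0408), and FKBP1B rose by 0.88 (SE 0.23, adjusted p = 0.0119).

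Within each extraction batch the slopes parted. In the 21 late hearts alone 19.2% of 16719 genes fell and 21.8% rose with the share, and 6 members fell and 1 rose. SLC8A1 fell by 4.295 log2 per doubling (SE 0.63, edgeR adjusted p = 0.000165) and RYR2 fell by 3.14 (SE 0.50, adjusted p = 0.000243). PLN was at −2.24, ATP2A2 at −2.20, CASQ2 at −1.86 and HRC at −1.65 log2 per doubling, with edgeR adjusted p between 0.0017 and 0.0181. FKBP1B rose by 1.51 log2 (SE 0.31, adjusted p = 0.000899).

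SRL, JPH2 and TRDN were not called in the late batch, at −0.96 (SE 0.49), −0.45 (SE 0.42) and 0.35 (SE 0.45) log2 per doubling. In the 17 early hearts, whose shares reached only 34.98%, 0.552% of 16294 genes were called and no member was, with 3 members at an unadjusted p under 0.05 in edgeR. RYR2 was at 1.07 log2 per doubling there (SE 0.36, edgeR adjusted p = 0.13) and SLC8A1 at 0.46 (SE 0.42, adjusted p = 0.579).

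The difference between the batches, tested as an interaction, was called lower in the late batch for 14.1% and higher for 15.8% of 17482 genes. It was called lower for 6 members, SLC8A1 (−4.78 log2 per doubling, SE 0.85, edgeR adjusted p = 0.000296), RYR2 (−4.16), ATP2A2 (−2.61), PLN (−2.54), CASQ2 (−2.52) and HRC (−2.11). It was called higher for FKBP1B (1.595, SE 0.43, adjusted p = 0.00623). The median of all genes was 0.12, and 0.60 when scaled by the orthologous exon total, where JPH2 and TRDN changed sign.

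**Figure D4:**
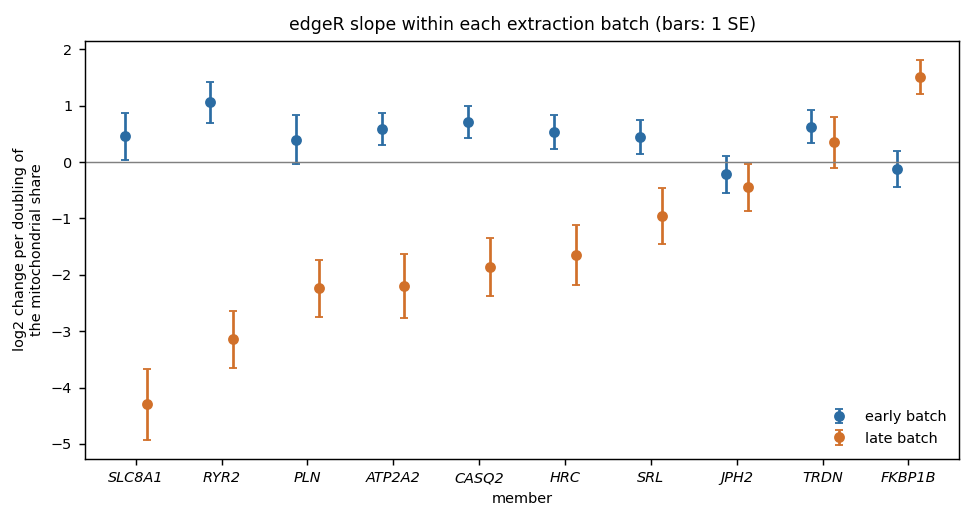
Change in log2 level per doubling of the mitochondrial share for each member, fitted separately in the early (blue) and late (orange) batch with edgeR, with bars of 1 SE. SLC8A1 and RYR2 have the lowest slopes in the late batch, −4.295 and −3.14, and lie above 0 in the early batch.

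The pooled slopes rested on the hearts of extreme share. Without 537 and Little_R no member passed the pooled fit over both batches, SLC8A1 being at −1.80 (SE 0.61, edgeR adjusted p = 0.0847). The interaction without 537 and Little_R was still called for 3683 of 17299 genes. Without the 6 hearts above 45% the slope of RYR2 was 0.38 (SE 0.39, adjusted p = 0.649) and that of SLC8A1 −0.11 (SE 0.51, adjusted p = 0.94). TRDN then rose by 1.14 (SE 0.28, adjusted p = 0.03), where 0.839% of 16690 genes rose. Heart 4X0354, the highest in TRDN, had the largest share left, 42.99%, and its part in this slope was not tested. Without covariates TRDN had r = 0.36 with the share over these 32 hearts (permutation adjusted p = 0.121). Its rho was 0.29 (permutation adjusted p = 0.3). No member passed the interaction without the 6 hearts, with 5 at an unadjusted p under 0.05.

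**Figure D5:**
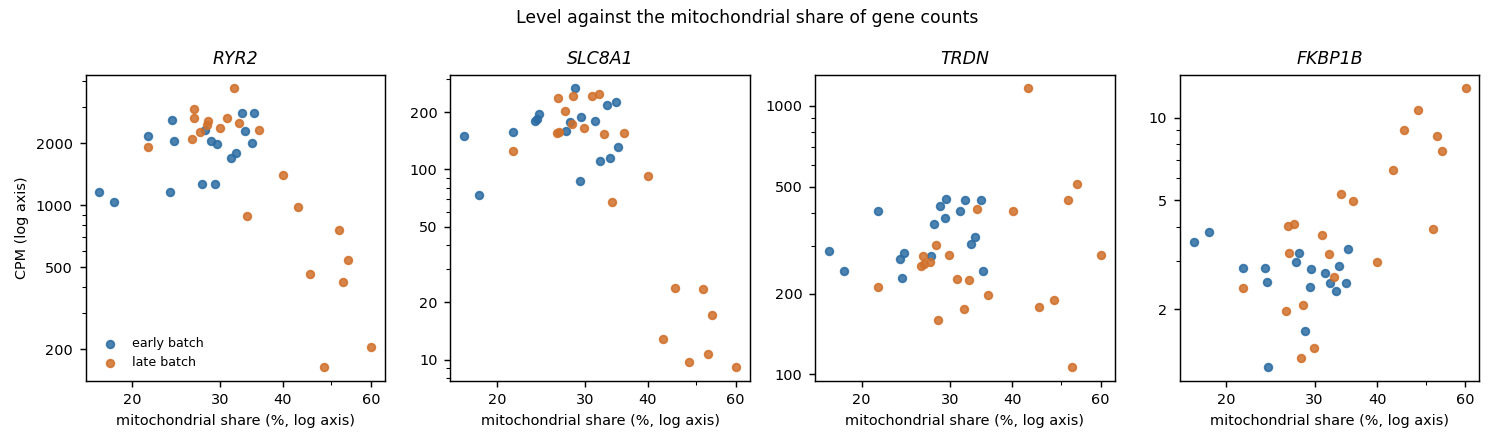
Level in CPM against the mitochondrial share of gene counts (both log axes) for RYR2, SLC8A1, TRDN and FKBP1B, 1 point per heart, blue for the early and orange for the late batch. RYR2 and SLC8A1 are lowest and FKBP1B highest in the late hearts of the largest shares, and TRDN is highest in 4X0354 at 42.99%.

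Marker genes of several cell types moved with the share in the same late hearts. Of 8 fibroblast markers 7 rose, of 7 endothelial markers 5 rose, and of 14 cardiomyocyte markers 5 fell. Of all 16719 genes 21.8% rose and 19.2% fell there, and the cardiomyocyte count lay nearer to that share than the fibroblast count. The summed fibroblast markers were between 725 and 12685 CPM in the late batch, highest in Little_R, and the summed cardiomyocyte markers were lowest in the same heart. The part of these markers in the slopes was not tested by a further model, and each member was instead set against the cardiomyocyte markers.

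Per 1000 reads of the 14 cardiomyocyte markers, RYR2 and SLC8A1 fell with the mitochondrial share in the late batch while most genes rose. Of 13094 genes set against the share in this way, 66.5% rose and 1.5% fell at a permutation adjusted p under 0.05 (adjusted over all of them), with a median r of 0.54. All genes share the marker sum as divisor. That sum was lowest in Little_R, 537 and 495, late hearts of large share, so the rise of most genes follows in part from the scaling. In the early batch the median r was −0.53. RYR2 was at 4.84 reads in 4X0339, 15.6 at the late batch's median and 20.3 in 4X0212, and its log2 value had r = −0.90 with the log2 share (rho = −0.82, permutation adjusted p = 0.00374 for r). No gene had a lower r, a rank among all genes and not among cardiomyocyte genes. The share was chosen because members were low in these hearts, so this rank is a description. SLC8A1 was at 0.129 in 529, 0.993 at the median and 1.76 in 4X0095, with r = −0.86 (rho = −0.82, permutation adjusted p = 0.00374), and 0.0458% of genes were lower. Without the 2 hearts farthest from the median share r was −0.88 and −0.84.

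CASQ2 (r = −0.58), HRC (r = −0.54) and PLN (r = −0.52) fell as well, so 5 of the 10 members were among the genes that fell. FKBP1B (r = 0.74), TRDN (r = 0.58) and JPH2 (r = 0.54) rose, as most genes did, and ATP2A2 (r = −0.34) and SRL (r = 0.10) did not pass. Without 537 and Little_R 0.726% of genes fell and 0.955% rose, and RYR2 (r = −0.89) and SLC8A1 (r = −0.87) were the members that passed (permutation adjusted p = 0.0131 each). In the 15 late hearts at or under 45% no gene passed, 1024 having an unadjusted permutation p under 0.05, and RYR2 and SLC8A1 were each at r = −0.70 (adjusted p of 0.236 and 0.201). In the early batch 47% of genes fell and 0.0382% rose. JPH2 (r = −0.72) and SRL (r = −0.57) were the members that fell there, and RYR2 was at r = 0.13.

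Ratios between members, taken within a library, do not depend on its total. HRC to CASQ2 was the steadiest of 8 ratios, between 0.325 in 462 and 0.760 in 4X0339 with a median of 0.430. FKBP1B to RYR2 was the widest, its highest value being 120 times its lowest. TRDN to RYR2 went from 0.0475 in 503 to 1.36 in 537 and PLN to ATP2A2, inhibitor to pump, from 0.0755 in 495 to 0.428 in 4X0354, with a median of 0.184.

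None of the 8 ratios passed for batch or sex after adjustment over 16 comparisons, and 3 had an unadjusted permutation p under 0.05. SLC8A1 to ATP2A2, the exchanger against the pump, was lower in the late batch, with a difference of −0.81 on the log2 scale (permutation p = 0.00505, adjusted p = 0.0808), and of −0.28 without the 6 hearts above 45% (permutation p = 0.166). The same ratio had a difference of −0.62 in males against females (permutation p = 0.0423, adjusted p = 0.251) and −0.24 without the 6 hearts (permutation p = 0.251), with −1.06 within the late batch (permutation p = 0.0183) and −0.05 within the early batch (permutation p = 0.861). FKBP1B to RYR2 was higher in the late batch by 1.11 log2 (permutation p = 0.047, adjusted p = 0.251), and was at −0.016 without the 6 hearts above 45%.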

How the data were processed

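RNA-seq of 38 chimpanzee hearts was analysed. Per the labels and methods, the authors extracted RNA from frozen tissue, selected polyA RNA, used the TruSeq v2 kit, which does not mark strand, so reads of overlapping antisense genes (at TRDN and PLN, for example) cannot be told apart, and aligned reads to Pan_tro_3.0 (Ensembl 95) with STAR 2.6.1b. Each deposited count in the gene table is unnormalized and comes from STAR. The deposited counts on orthologous exons come from featureCounts and gave library totals only. The authors' normalized matrix holds a standardized score per gene for 37 animals and 13545 genes, and was used only in the limma alternative. In all 52 per-sample columns that match no sample here were not used, and the human comparison was not analysed here. No sequence or transcript length was used.

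The members and gene lists were chosen with earlier results of these data known. Named genes were all members, up to 2 called genes per direction in each other calcium list, and the 3 nearest genes of each member. The low-library sets, the 45% limit, heart 549 and the block of correlated members were chosen after seeing the data. So were the mitochondrial slope, its interaction and the values per cardiomyocyte reads. Batch, sex, RNA integrity and age came from the study's sample table, and 4 animals without an age were dropped from that fit. Replicates are separate animals.

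CPM were gene counts per 1000000 orthologous exon reads. At these depths the smallest member count was 63, so counting error was small beside the spread between hearts. Tests used edgeR 4.0.16 (TMM, filterByExpr, quasi-likelihood) in R 4.3.3, with DESeq2 1.42.0 and limma 3.58.1 as alternatives. Dispersion came from a negative binomial fit modelled on the study's, but on STAR gene counts and without gene length, with a LOESS trend (degree 1, span 0.75) for genes of at least 6 CPM in 1 animal or more and SE from 1000 draws of the animals with replacement. Correlations and ratios used two-sided permutation tests (100000) in SciPy 1.17.1. The edgeR script was tested on simulated data. Alternatives changed scaling, filter, covariates, tool and the hearts included.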

Additional observations from a re-analysis of the deposited data

Results flagged for a closer look

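For 7 members the slope of log2 level on the mitochondrial share differed between the late and the early extraction batch in the test of the difference itself (edgeR interaction term). The difference, late minus early in log2 per doubling of the share, was −4.78 for SLC8A1, −4.16 for RYR2, −2.61 for ATP2A2, −2.54 for PLN, −2.52 for CASQ2, −2.11 for HRC and 1.595 for FKBP1B. No member passed this test without the 6 hearts above 45% mitochondrial share, where 28 genes in all were called.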

How the results depend on the processing

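Several results rest on the late hearts with large mitochondrial shares. The median SD of log2 level was 1.07 when scaled by the gene count total, 0.61 without 537 and Little_R and 0.52 without the 6 hearts above 45%. The median dispersion was 0.027 in the early batch and 0.31 with a LOESS span of 0.3, and 0.37 to 0.66 when each heart was left out in turn. Dispersion turned below 0 in the early batch for ATP2A2 (−0.44), CASQ2 (−0.58), SRL (−0.32) and HRC (−0.35), and without the 6 hearts for CASQ2 (−0.30) and HRC (−0.064). That of FKBP1B turned above 0 (0.23) with a limit of 1 CPM in 19 hearts.

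The share of tested genes called was 16.1% for extraction batch, 17.7% for the mitochondrial slope and 29.9% for its interaction with batch. For batch 0 members were called without 537 and Little_R, with principal component 1 added, in animals of the Yerkes center (2.08% of genes), by limma (4.12%), without the 6 hearts (8.61%) and with the mitochondrial share added (3.5%). For sex 0.215% of genes were called, against 0.64% by DESeq2, 53 genes in place of 34 with no filter, 0.13% in the late batch and 0 by limma (687 at an unadjusted p under 0.05). For RNA integrity DESeq2 called 1.02%, the exon total 0.0121%, no filter 0.00742%, the early batch 0.0123%, principal component 1 added 0.151% and the set without the 6 hearts 0.352%. For age DESeq2 called 0.0123% and no filter 0.0225%.

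For the mitochondrial slope the genes and members called were 3.85% and 0 without 537 and Little_R, 28.2% and 7 in Yerkes animals, 0.898% and 1 with principal component 1, 0% and 0 by limma (1259 genes at an unadjusted p under 0.05), 1.70% and 1 without the 6 hearts, 0.552% and 0 in the early batch and 41.0% and 7 in the late batch. Slopes turned sign in the early batch for RYR2 (1.07), PLN (0.40), SLC8A1 (0.46) and FKBP1B (−0.13), and without the 6 hearts for RYR2 (0.38) and PLN (0.20). With the exon total 1603 genes rose and 1328 fell, and with no filter 9.5% of genes were called. The interaction called 7.47% and 4 members in Yerkes animals, 1.86% and 0 by limma, and 0.165% and 0 without the 6 hearts, and with the exon total 4328 genes were higher and 1264 lower, and with no filter 18.2% were called. FKBP1B to RYR2 turned to −0.016 without the 6 hearts. Correlations passed for 6 pairs in the early batch, and values per cardiomyocyte reads for 2 members without 537 and Little_R and 0 without the 6 hearts (4 at an unadjusted permutation p under 0.05). Among values of single members under an alternative, 233 stayed as they were within the spread or on their side of the threshold. Of the rest 39 kept the direction and lost the call, 42 moved up or down by 1 SE or more, and 13 reversed direction. Fewer hearts entered each of these subsets, and otherwise the cause was not tested. No paired analysis was possible because each animal gave 1 library.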
